A study of Rattus norvegicus with 8 samples.

Results

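Oligodendrocyte lineage and myelin genes were followed in rat hippocampus under vehicle and under Y+I, the joint treatment with yohimbine and imipramine. Both treatments lasted 7 days, the tissue was collected 2 h after treatment, and the rats were Sprague Dawley males at an age of 3 months. The genes came from a named list of 32, split by role into 7 genes of the precursor stage and the lineage's transcription factors and 25 genes of the myelin sheath and the mature cell. A probe matched 31 of the 32 by gene name, alias or transcript accession, and Nkx2-2, a transcription factor of the lineage, was not analysed here. All 31 passed the filter on dim probes, and the probe used for each was well above background on all 8 arrays, among 18803 features tested in all. Each group held 4 animals and each animal had its own 1-colour array, so that n = 4 for every mean. Yohimbine blocks alpha2-adrenoceptors and imipramine inhibits the reuptake of noradrenaline and serotonin. The drugs were given together, and neither was analysed here by itself.

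Oligodendrocytes are the cells that wrap axons of the central nervous system in myelin, a stack of compacted membrane rich in galactolipids and in a small set of structural proteins. They arise from precursor cells that carry the platelet-derived growth factor receptor Pdgfra, under the transcription factors Olig1, Olig2 and Sox10, pass through a short committed stage marked by Gpr17 and Enpp6, and then switch on the sheath genes. In the hippocampus most of them lie in fibre layers such as the alveus, the fimbria and the stratum lacunosum-moleculare. RNA of whole tissue was measured, so fewer cells of this type and less RNA per cell cannot be told apart.

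Levels are log2 processed signals minus the 75th percentile of the same array, so 0 is the level below which 75% of an array's spots fall, and levels of different probes are not comparable. Of the spots, 76.4% to 79.7% were well above background in vehicle and 64.4% to 74.8% in Y+I, and the 75th percentile of the signal ranged from 1939 to 2106 scanner units in vehicle and from 1045 to 1971 in Y+I, lowest in Y+I animals 4 (1045) and 2 (1408). The SD of a member between animals had a median of 0.159 in vehicle and 0.231 in Y+I. All arrays shared 1 slide, where the vehicle arrays filled the first row and the Y+I arrays the second, and the effects of row and treatment cannot be told apart. All 12 markers of hippocampal neurons were measured, 10 of them well above background on every array, as were 6 of 7 thalamic markers, so detection does not by itself tell the labelled tissue from its neighbours.

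A single member passed the test (limma, Benjamini-Hochberg adjusted p under 0.05): Aspa, which was higher in Y+I. Its product, aspartoacylase, is the oligodendrocyte enzyme that splits N-acetylaspartate from neurons and so frees acetate for myelin lipids. No member was lower, and the other 30 did not pass the test. The share called, 3.23% of the 31 members, lay near the 2.33% of all 18803 features that were called (0.739% higher and 1.6% lower). An unadjusted p under 0.05 was reached by 3 members (9.68%), Aspa, Mobp and Car2, all higher in Y+I, against 15.6% of all features. The groups did not overlap for Aspa and Car2, which are 6.45% of the members, whereas 5.04% of all features lay fully higher in Y+I. No member lay fully lower, as 6.65% of all features did. The shares of all features, here and below, include probes kept through 1 group alone, whereas the members were well above background on all 8 arrays. With a filter on all 8 arrays, 372 features were called, 161 of them higher in Y+I, against 139 of 439 in the main fit. The number of features tested under that filter is not given here, so these are counts and not shares.

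Because the result rests on single probes, the Aspa probe is shown first, and then the stretches upstream of the start sites of Aspa and Mobp, the members with the highest differences. The Aspa probe lies on the minus strand of rn4 at chr10:60178969-60179028. Read from its first base, it holds no stop codon before its final 3 bases, TAA, in capitals. Another frame is free of stop codons too, and no protein sequence was used to set the frame. The upstream windows are the 250 bases before each RefSeq start site in GRCr8, chr10:58439038-58439287 on the minus strand for Aspa and chr8:128746982-128747231 on the plus strand for Mobp. Capitals in them mark ACAAAG, the core letters bound by SOX factors, or CAGCTG, an E-box of the kind bound by OLIG proteins, on either strand.

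Aspa probe: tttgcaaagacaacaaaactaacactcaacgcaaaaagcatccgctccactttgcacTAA
Aspa upstream: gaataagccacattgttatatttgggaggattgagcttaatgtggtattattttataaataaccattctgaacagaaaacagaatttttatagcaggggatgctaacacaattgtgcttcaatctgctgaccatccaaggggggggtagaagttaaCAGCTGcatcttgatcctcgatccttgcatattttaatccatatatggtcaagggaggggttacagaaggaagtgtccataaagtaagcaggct
Mobp upstream: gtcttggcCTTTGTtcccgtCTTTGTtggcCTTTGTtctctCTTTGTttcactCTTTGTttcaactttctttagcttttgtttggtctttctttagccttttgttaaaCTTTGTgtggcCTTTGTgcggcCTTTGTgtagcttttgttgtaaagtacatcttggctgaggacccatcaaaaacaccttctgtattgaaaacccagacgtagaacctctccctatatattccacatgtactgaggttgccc

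The Mobp window held 8 copies of ACAAAG, all on the strand opposite to the one printed, where they read CTTTGT. Of 33469 upstream windows in the RefSeq table, 2 held 8 copies, the Mobp window included, and 8 was the highest count in any. The Aspa window held none of them and 1 CAGCTG. Of the 26 windows that matched a member, Nkx2-2 included, ACAAAG stood in 6 (23.1%, against 16.3% of all windows), CAGCTG in 4 (15.4%, against 12%) and CTGGNAC, letters bound by the myelin regulator Myrf, in 9 (34.6%, against 14.8%). The motifs can overlap at their ends and each was counted on its own, and a match describes letters only. Mog, Car2, Olig1, Sox10, Ermn, Bcas1, Evi2a and Enpp2 had no entry in the table.

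**Figure D1:**
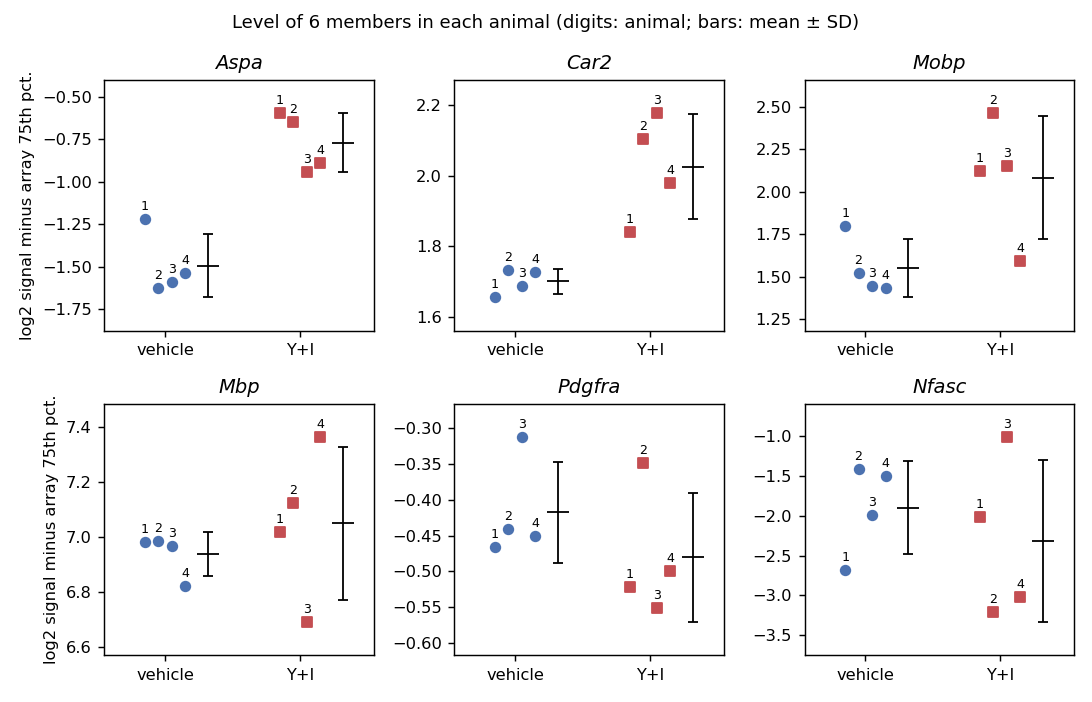
Level of 6 members (log2 signal minus the array's 75th percentile) in 4 vehicle animals (circles) and 4 Y+I animals (squares), with digits for the animal and bars for the mean ± SD. The groups are apart for Aspa and Car2 and overlap for Mobp, Mbp, Pdgfra and Nfasc.

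The precursor genes showed no called difference. Over the 6 measured, the log2 differences (Y+I minus vehicle) had a median of 0.118, between -0.06 for Sox10 and 0.24 for Enpp6, where all 18803 features had a median of -0.02. Their 95% intervals together spanned -0.33 to 0.66. Without Y+I animal 4 the median was 0.019 and without Y+I animal 1 it was 0.047.

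Pdgfra, the receptor that marks precursor cells, had levels of -0.47, -0.44, -0.31 and -0.45 in vehicle animals 1 to 4 and -0.52, -0.35, -0.55 and -0.50 in Y+I animals 1 to 4. Vehicle animal 3 was the highest and the groups overlapped. The difference was -0.06 ± 0.09 (SE), with a 95% interval of -0.27 to 0.14, the narrowest of any member, and an adjusted p of 0.796. Its probe lies at chr14:35369708-35369767 in rn4. Pdgfra is also made by fibroblasts of the meninges, 3 of whose 11 markers were lower in Y+I, as given further on.

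Gpr17, a receptor of the committed stage, stood at -3.44, -3.48, -3.36 and -3.24 in vehicle and at -3.53, -3.36, -3.48 and -2.49 in Y+I. The difference of 0.16 ± 0.22 (SE, adjusted p = 0.773) came from Y+I animal 4, without which it was -0.08. Enpp6, a choline-specific ectoenzyme that marks newly formed oligodendrocytes, read -2.47, -2.30, -2.54 and -2.37 in vehicle against -2.25, -2.01, -2.06 and -2.39 in Y+I. Of the 4 Y+I animals, 3 were above every vehicle animal and animal 4 lay among them, for a difference of 0.24 ± 0.11 (SE, adjusted p = 0.348).

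The transcription factors moved little. Olig2 had levels of 0.40, 0.57, 0.37 and 0.54 in vehicle and 1.03, 0.46, 0.73 and 0.47 in Y+I, so Y+I animals 1 and 3 stood above the vehicle animals while 2 and 4 lay among them. Its difference was 0.20 ± 0.14 (SE, adjusted p = 0.546). A second Olig2 probe, near background in Y+I (2 of 4 arrays above it), differed by 0.004. Sox10, which drives many sheath genes, read 1.14, 1.14, 0.95 and 1.14 in vehicle and 0.81, 1.11, 1.26 and 0.94 in Y+I. Vehicle animal 3 stood apart below the other 3 vehicle animals, which lay within the range of Y+I, and the difference was -0.06 ± 0.12 (SE, adjusted p = 0.846). Olig1, whose probe at chr11:31246213-31246272 lies beside that of Olig2 at chr11:31208654-31208713, differed by 0.07 ± 0.13 (SE, adjusted p = 0.838). For Olig1, too, vehicle animal 3 was the lowest of its group, at 2.35.

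**Figure D2:**
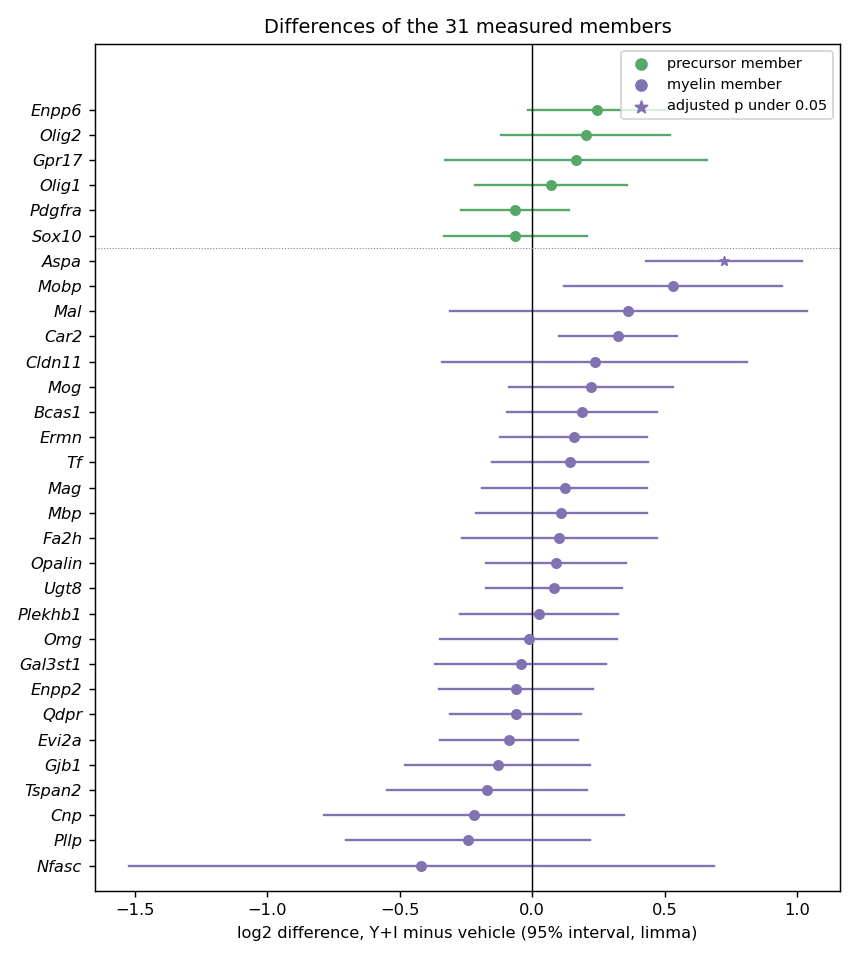
Log2 difference between Y+I and vehicle for the 31 measured members, with 95% intervals from limma; the 6 precursor members stand above the dotted line and the 25 myelin members below. The Aspa interval starts at 0.43, those of Mobp and Car2 also lie above 0, and the widest belongs to Nfasc.

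Among the 25 myelin genes, 15 had a difference above 0 and 10 below, with a median of 0.091, and of all 31 members 19 (61.3%) were above 0 against 45.9% of all features. Without vehicle animal 3 the median of the myelin genes was 0.013 and without Y+I animal 3 it was 0.025. With Y+I animals 2 and 3 both left out it was -0.018. Averaged over all probes of a gene it was 0.027. The intervals of 28 of the 31 members lay within 1 log2 unit of 0, which is a doubling or a halving, and those of 18 lay within 0.5, so a change of those sizes is outside the interval for them. Nfasc, Mal and Aspa were the 3 exceptions at 1 unit.

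Aspa had levels of -1.22, -1.63, -1.59 and -1.54 in vehicle animals 1 to 4 (mean -1.49 ± 0.19, SD) and of -0.60, -0.65, -0.94 and -0.89 in Y+I animals 1 to 4 (mean -0.77 ± 0.17). Every Y+I animal was above every vehicle animal, and vehicle animal 1 was the nearest to them. The difference was 0.72 ± 0.13 (SE), with a 95% interval of 0.43 to 1.02, an increase of 1.65-fold with an adjusted p of 0.0289. A single probe measured it, the one shown above. The call was lost when vehicle animal 2, 3 or 4 or Y+I animal 1 or 2 was left out, with adjusted p-values of 0.089, 0.0854, 0.0996, 0.0673 and 0.0612, and the difference then stayed between 0.67 and 0.71.

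Mobp encodes a basic protein of the compact sheath. Its brightest probe, at chr8:125136405-125136464 in rn4, read 1.80, 1.53, 1.45 and 1.43 in vehicle and 2.13, 2.46, 2.15 and 1.59 in Y+I. Y+I animals 1, 2 and 3 were above all vehicle animals, and Y+I animal 4 was below vehicle animal 1. The difference of 0.53 ± 0.18 (SE; unadjusted p = 0.0169) did not pass the test, at an adjusted p of 0.19. The other 2 Mobp probes differed by 0.26 ± 0.13 and 0.26 ± 0.27 (SE). On the last of these, which lies farthest along the transcript, Y+I animals 2 and 4 read 0.71 and 0.79 and Y+I animals 1 and 3 read 1.58 and 1.94.

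Car2 is carbonic anhydrase II, an enzyme of the oligodendrocyte cytoplasm that is also found in other brain cells. Its levels were 1.66, 1.73, 1.69 and 1.73 in vehicle, a spread of 0.04 (SD), and 1.84, 2.10, 2.18 and 1.98 in Y+I. The groups did not overlap, with Y+I animal 1 nearest to vehicle. The difference was 0.32 ± 0.10 (SE; unadjusted p = 0.00974; adjusted p = 0.146), or 1.25-fold.

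The main structural proteins of the sheath did not pass the test. Mbp, the basic protein that holds the inner faces of the membrane together, read 6.98, 6.99, 6.97 and 6.82 in vehicle and 7.02, 7.13, 6.69 and 7.36 in Y+I on its bright probe at chr18:79057264-79057323. The Y+I animals lay on both sides of the vehicle animals, and the difference was 0.11 ± 0.14 (SE, adjusted p = 0.765). A dimmer Mbp probe lies upstream at chr18:79026442-79026501 in rn4 and is assigned in the files to another Mbp transcript. It read -2.13, -1.48, -0.92 and -1.41 in vehicle and -1.84, -2.19, -1.75 and -1.99 in Y+I, a difference of -0.46 ± 0.23 (SE) in a fit of all kept probes. Vehicle animals 2, 3 and 4 were above all Y+I animals and vehicle animal 1 was among them. The unadjusted p was 0.0812, and with both probes averaged the Mbp difference was -0.17.

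Mog, a protein of the sheath's outer face, had levels of 2.58, 2.44, 2.21 and 2.42 in vehicle and 2.49, 2.98, 2.56 and 2.50 in Y+I. Y+I animal 2 stood above the other animals and the remaining values overlapped, for a difference of 0.22 ± 0.14 (SE, adjusted p = 0.489). In the deposited value table it was 0.95 ± 0.56 (SE, adjusted p = 0.484). There Y+I animal 4 stood at 5.95 and the other arrays at 2.81 to 3.65, and 1 of the 2 Mog spots of Y+I animal 4 is marked as an outlier in the scanner file and was left out of the main values. Mag, an adhesion protein of the innermost wrap, differed by 0.12 ± 0.14 and Bcas1, a marker of cells that are laying down myelin, by 0.19 ± 0.12. Ermn, a late cytoskeletal protein, differed by 0.16 ± 0.12, and Opalin, a sialylated membrane protein of the sheath, by 0.09 ± 0.12. None of the 4 passed, with adjusted p-values from 0.524 to 0.764. Second probes of Ermn and Opalin had the other sign, at -0.07 for both.

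**Figure D3:**
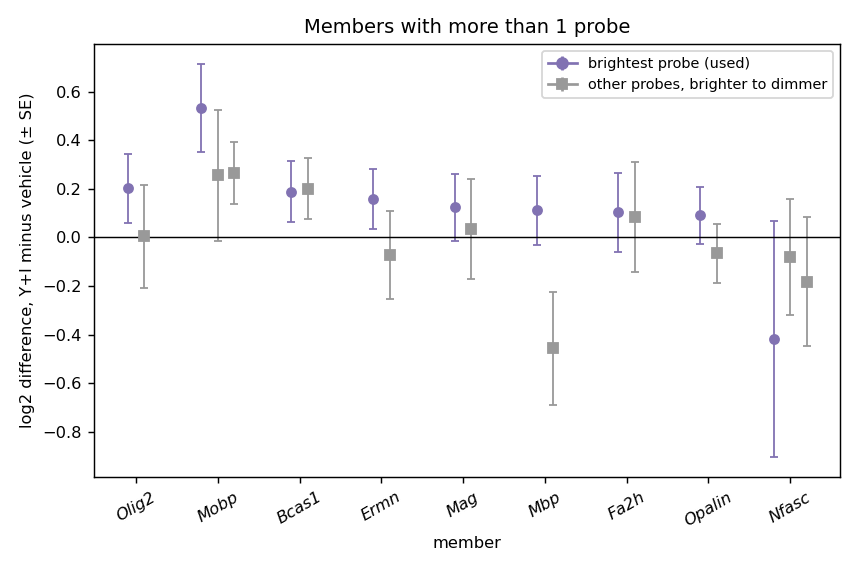
Log2 difference (Y+I minus vehicle, ± SE from a fit of all kept probes) for each probe of the 9 members with more than 1 probe; the brightest is purple and the others are grey. The 3 probes of Mobp lie above 0 and the 3 of Nfasc below, and the dimmer Mbp probe lies at -0.46.

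In some further sheath genes the Y+I animals spread widely, and they are grouped here after their values were seen. Spread between animals was not particular to them: Plekhb1 and Fa2h, too, differed less between the groups than their SD within either. Nfasc encodes neurofascin, whose glial form joins the ends of the sheath to the axon and whose neuronal form sits in the axon. It read -2.69, -1.42, -1.99 and -1.50 in vehicle and -2.02, -3.21, -1.02 and -3.02 in Y+I. The Y+I animals spread over 2.19 log2 units, from above every vehicle animal to below every one. The difference of -0.42 ± 0.49 (SE, adjusted p = 0.738) was the lowest of the myelin genes and had the largest error of any member. Its other 2 probes differed by -0.08 and -0.18.

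Mal and Pllp, proteolipids of membrane rafts, Cldn11, the tight junction protein of the sheath, and Cnp, a cyclic nucleotide phosphodiesterase that keeps cytoplasmic channels open, had Y+I animals 2 and 4 low as well. Cldn11 stood at -1.35, -1.97, -0.76 and -1.67 in Y+I animals 1 to 4 and Mal at -0.15, -0.92, 0.57 and -0.54. Cnp read 1.63, 1.03, 1.91 and 1.17 in them. In all of these, Y+I animals 2 and 4 were below Y+I animals 1 and 3, as they were for 10 of the 31 members (32.3%) and for 21.7% of all features. The 10 were Nfasc, Mal, Cldn11, Cnp, Pllp, Omg, Gjb1, Enpp2, Olig1 and Olig2. Y+I animals 2 and 4 are also the arrays with the lowest 75th percentile of the signal. By the share of spots well above background, Y+I animals 3 (64.4%) and 2 (65.3%) were lowest, and Y+I animal 4 had 74.8%. The part of either in these values was not tested. The 4 differences between the groups were 0.36 for Mal, 0.24 for Cldn11, -0.22 for Cnp and -0.24 for Pllp, with adjusted p-values from 0.616 to 0.732. Leaving out 1 animal in turn moved them between 0.087 and 0.581 for Mal, 0.01 and 0.414 for Cldn11, -0.406 and -0.084 for Cnp, and -0.385 and -0.102 for Pllp. Gjb1, which encodes the gap junction protein connexin 32, differed by -0.13 ± 0.15 (SE) and Tspan2, a tetraspanin, by -0.17 ± 0.17, with adjusted p-values of 0.744 and 0.684.

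The lipid enzymes other than Aspa showed no called difference. Ugt8, which makes galactosylceramide, differed by 0.08 ± 0.11 (SE), Fa2h, which hydroxylates its fatty acids, by 0.10 ± 0.16, and Gal3st1, which turns it into sulfatide, by -0.04 ± 0.14. Their adjusted p-values ranged from 0.782 to 0.923. The interval of Ugt8 ran from -0.17 to 0.34, that of Gal3st1 from -0.37 to 0.28 and that of Fa2h from -0.26 to 0.47, the last overlapping that of Aspa, which began at 0.43. The differences between these genes were not tested.

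Transferrin (Tf), which oligodendrocytes make in quantity, differed by 0.14 ± 0.13 (SE) and Qdpr, which restores tetrahydrobiopterin, by -0.06 ± 0.11. Enpp2, the secreted enzyme autotaxin, differed by -0.06 ± 0.13 and Plekhb1 by 0.03 ± 0.13. Omg, a surface protein that limits neurite growth, differed by -0.01 ± 0.15 and Evi2a by -0.09 ± 0.12. Both of these lie in 1 stretch of rn4 chromosome 10, with probes at chr10:65689469-65689528 and chr10:65713441-65713500. None of the 6 passed, with adjusted p-values from 0.655 to 0.979.

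**Figure D4:**
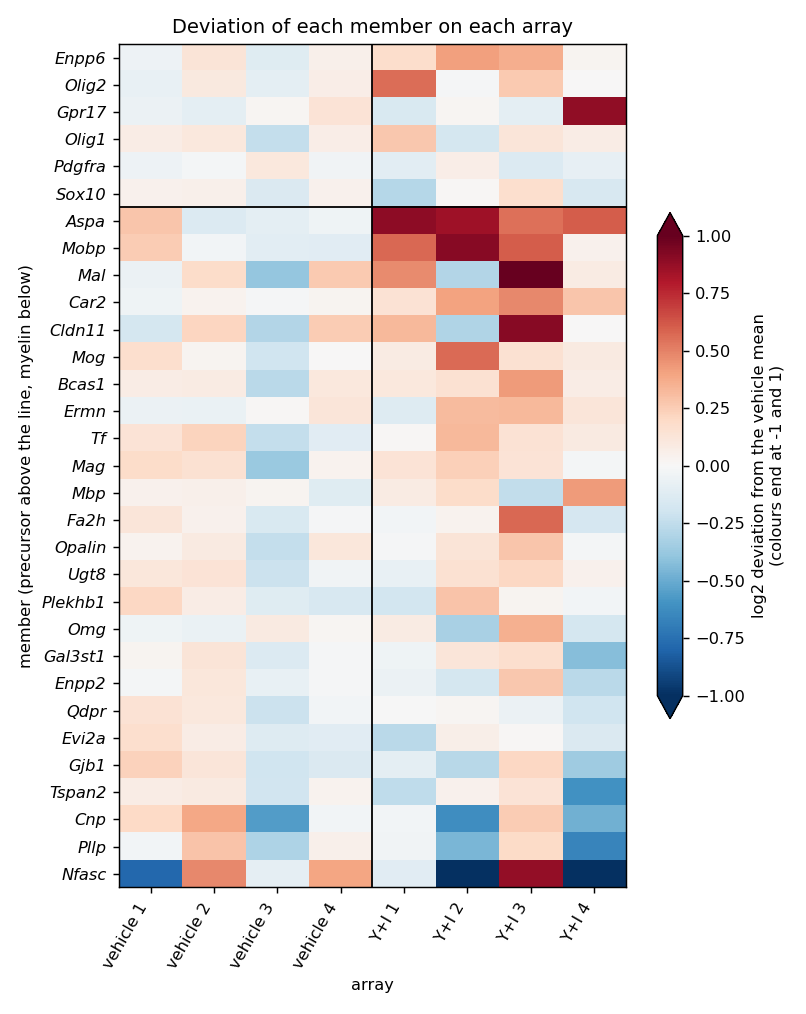
Log2 deviation of each member from its vehicle mean on each of the 8 arrays, with red for higher and blue for lower and colours that end at -1 and 1. Vehicle animal 3 is blue for most members, and Y+I animals 2 and 4 are blue for Cnp, Pllp and Nfasc, where Y+I animal 3 is red.

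Single animals were low or high for many of the members, though not for all. Vehicle animal 3 was the lowest of its group for 21 of the 31 members (67.7%), against 26.1% of all features, and Y+I animal 3 was the highest of its group for 17 (54.8%, against 21.1%). Pdgfra was instead highest in vehicle animal 3, and Mbp lowest in Y+I animal 3. By the median deviation of the myelin genes from the vehicle mean, vehicle animals 1 to 4 stood at 0.07, 0.09, -0.19 and -0.01 and Y+I animals 1 to 4 at -0.01, 0.12, 0.26 and -0.02. The spread between animals of 1 group, 0.130 (SD) in vehicle and 0.132 in Y+I, was thus larger than the gap of the group means, -0.01 against 0.09. For the precursor genes the same medians were -0.05, 0.08, -0.11 and 0.06 in vehicle and 0.04, 0.02, 0.14 and 0.02 in Y+I. The summed linear level of the myelin genes, to which the bright probes contribute most, ranged from 249.2 to 286.5 times the 75th percentile in vehicle and from 269 to 308.2 in Y+I, so the groups overlapped.

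The list of other genes was taken from outside the members. Of 38 further oligodendrocyte genes, 34 were measured and none passed the test in either direction. At an unadjusted p under 0.05 in limma, 2 were higher and 2 lower (11.8%, against 15.6% of all features). The median difference of the 34 was 0.05. The 2 with the smallest p were Dusp15 and Mbnl3. Dusp15, a phosphatase, read -4.97, -5.11, -5.18 and -5.37 in vehicle and -5.55, -5.49, -5.68 and -6.23 in Y+I, where 3 of 4 arrays were well above background. The groups did not overlap, for a difference of -0.58 ± 0.17 (SE, adjusted p = 0.139), which was 0.08 under normexp background correction. Mbnl3 was well above background on no Y+I array. It read 1.49-fold lower there, with a log2 interval of -0.98 to -0.17 and an adjusted p of 0.151 in limma. Mbnl3 too turned sign under normexp, to 0.25. The probes of Dusp15 and Mbnl3 passed the filter on dim probes through vehicle alone, which selects for lower readings in Y+I.

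Of 32 regulators of the lineage, 30 were measured, of which 1 was higher and 1 lower (6.67%, against 2.33% of all features). At an unadjusted p under 0.05 in limma the shares were 26.7% and 15.6%. Fully higher in Y+I were 3.33% of the regulators and 5.04% of all features. Fully lower were 13.3% and 6.65%. Of the 30 regulators, 25 were well above background on every array, and the others passed the filter on dim probes through vehicle alone. That route selects for lower readings in Y+I. Nrg1, well above background on 2 of 4 Y+I arrays, is such a gene and counts in the 13.3% and in the 26.7%. Nrg1 is named here after its values were seen. Rxrg, a retinoid X receptor linked to oligodendrocyte maturation and also made by neurons, read -1.85, -1.30, 0.13 and -0.73 in vehicle and -2.80, -2.92, -3.46 and -3.24 in Y+I. All Y+I animals were below all vehicle animals, and vehicle animal 3 was the highest. Rxrg fell by 2.17 ± 0.38 on the log2 scale (SE, adjusted p = 0.0272), or 4.49-fold. Fgf2, a growth factor that keeps precursors dividing, stood at -3.35, -3.32, -3.32 and -3.21 in vehicle and at -2.79, -2.84, -2.94 and -2.58 in Y+I, again without overlap. Fgf2 rose by 0.51 ± 0.10 (SE, adjusted p = 0.0407). The call of Rxrg was lost without vehicle animal 2 or 4 or Y+I animal 2, 3 or 4, with an adjusted p of up to 0.0909, and that of Fgf2 without any 1 animal but Y+I animal 3, with one of up to 0.121. With no animal left out, Fgf2 also missed the threshold under median centring (adjusted p = 0.0506) and under eBayes with trend and robust (0.0503).

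Markers of other cell types moved beside these results. Of 11 markers of meninges and fibroblasts, 3 were lower in Y+I (27.3%, against 1.6% of all features). They were Slc6a13, Col1a1 and Igfbp2, by 1.02, 1.03 and 0.73 on the log2 scale. Of the 11, 54.5% lay fully lower in Y+I, against 6.65% of all features, and none fully higher. The 11 had a median of -0.58 and summed levels of 9.3 to 11.37 in vehicle against 6.925 to 8.759 in Y+I. Of 7 measured thalamic markers, 1 was called (14.3%, against 2.33% of all features): Slc17a6, lower by 1.17. The 7 had a median of -0.42, which is the value of Rora, and sums of 3.186 to 4.458 against 1.984 to 2.364. Rora was well above background on 1 of 4 Y+I arrays. Its probe passed the filter on dim probes through vehicle alone, which selects for lower readings in Y+I. Fully lower in Y+I were 57.1% of the 7 and fully higher 14.3%, against 6.65% and 5.04% of all features. Not all of the 7 were lower: Tcf7l2 differed by 0.09 and Lhx9 by 0.94 (adjusted p = 0.117), the latter without overlap of the groups. Tcf7l2 and Lhx9 are named here after their values were seen. Of 12 markers of hippocampal neurons, 1 was called (8.33%, against 2.33% of all features): Camk2a, higher by 0.78. Of the 12, 25% lay fully higher in Y+I, against 5.04% of all features, and none fully lower. The 12 had a median of 0.33, with 4 below 0, and sums of 29.34 to 42.41 against 50.89 to 55.04. Fibcd1, the brightest of the 12, contributes most to those sums. Its groups overlapped (adjusted p = 0.26), and it is named here after its values were seen. By the median deviation of the list, Y+I animal 2 stood at -0.08, among the vehicle animals at -0.12 to 0.14. Slc6a13 and Col1a1 kept the call whichever single animal was left out. That of Igfbp2 was lost without any 1 but Y+I animal 2 (adjusted p up to 0.11), that of Slc17a6 without any but vehicle animal 3 or Y+I animal 4 (up to 0.0967) and that of Camk2a without any 1 of the 8 (up to 0.106). With all animals, Igfbp2 lost its call under median centring (adjusted p = 0.0826) and in the deposited value table (0.0546), and Camk2a under array weights (0.0544). The part of these cell types in the differences of the oligodendrocyte genes was not tested.

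None of 11 astrocyte markers passed (smallest p for Aldh1l1 and Agt), and none of 8 of microglia (smallest p for P2ry12 and Csf1r). At an unadjusted p under 0.05 in limma were 1 astrocyte marker (9.09%) and 2 of microglia (25%), against 15.6% of all features. The summed levels of both lists overlapped between the groups, at 75.94 to 81.45 against 74.81 to 93.11 for astrocytes and 15.97 to 18.1 against 14.23 to 20.45 for microglia. Of 4 measured markers of the choroid plexus none passed (smallest p for Sostdc1 and Folr1). Both were at an unadjusted p under 0.05 in limma (50%, against 15.6% of all features). Sostdc1 was well above background on no Y+I array and passed the filter through vehicle alone. The sum of the 4 ranged from 0.216 to 4.552 in vehicle, highest in vehicle animal 3, and from 0.3188 to 1.456 in Y+I. Ttr, at 2.14 in vehicle animal 3, contributes most to that sum. Vehicle animal 3 was also low in most members, and a link between the 2 was not tested. Schwann cells make myelin outside the central nervous system. Their 5 measured markers summed to 0.1297 to 0.1676 in vehicle and 0.06439 to 0.1351 in Y+I. Ngfr was the 1 marker of the 5 called (20%, against 2.33% of all features). Well above background on no Y+I array, it read 3.58-fold lower there (log2 interval -2.48 to -1.20, adjusted p = 0.0156). Its probe passed the filter on dim probes through vehicle alone, which selects for lower readings in Y+I. Of the 5 markers, 1 was well above background on all 8 arrays. The Ngfr difference was -0.27 under normexp and -0.78 in the deposited value table, where it did not pass (adjusted p = 0.188 and 0.637), and without vehicle animal 1, 2 or 4 it just missed the threshold (adjusted p up to 0.0614).

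**Figure D5:**
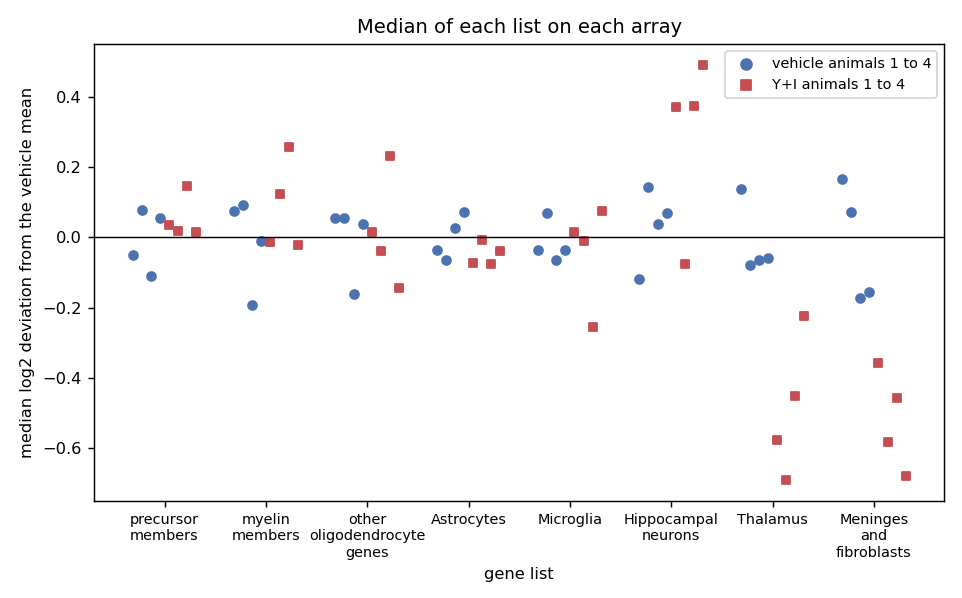
Median log2 deviation from the vehicle mean for each gene list on each array, with circles for vehicle animals 1 to 4 and squares for Y+I animals 1 to 4 from left to right. The myelin, precursor, other oligodendrocyte, astrocyte, microglia and hippocampal neuron lists overlap between the groups, and the thalamic and meningeal lists lie lower in Y+I.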

How the data were processed

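Per the labels' protocols, total hippocampal RNA from each of 8 rats was converted to Cy3-labelled cRNA and read on 1-colour Agilent arrays. Per the file headers, the authors' Agilent Feature Extraction output gives for each spot a mean, a background and a processed intensity, the last background-subtracted and not normalised between arrays. The deposited log2 value table of the same arrays, whose scale and centring are not stated, had r of at least 0.9986 with the scanner values and column medians of -3.51 to -3.35; it served as an alternative.

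Main values were log2 processed signal minus the array's 75th percentile over noncontrol spots. No spot was saturated, and outlier spots were set to missing. Of 30367 probes, 21370 were kept: in 1 of the groups, each of the 4 arrays had at least 50% of the probe's spots well above background, and both groups had 3 or more values. Symbols came from the RefSeq table of GRCr8, for 18004 probes by accession, 2320 by symbol and 626 by synonym; 1999 kept the file's name and 7418 had none. Each gene was read on its brightest kept probe. Probe coordinates (rn4) come from the scanner files, which give no exon or UTR.

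Groups were compared over all 18803 features with limma 3.58.1 (R 4.3.3; lmFit and eBayes, two-sided, Benjamini-Hochberg, threshold 0.05); the fit was tested on simulated data. Intervals are 95%. The number of arrays limits the precision. The members, gene lists and alternatives were chosen with earlier results of these data known. Members given with every array are those with an adjusted and then an unadjusted p under 0.05, the extremes of each class, and Mbp, Mog, Olig2, Sox10 and Pdgfra; Gpr17 and the Y+I values of Cldn11, Mal and Cnp were added after the values were seen. From every other list, the called genes or else the 2 with the smallest p are named. Alternatives covered normalisation, background correction, filters, probe summaries, variance models, an animal-number block and arrays left out. Figures were drawn with matplotlib 3.10.9. Results for some genes of these lists are not reported here.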

Additional observations from a re-analysis of the deposited data

Results flagged for a closer look

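In 8 of 66 groups of 4 animals (31 members and 2 class medians, in each treatment) 1 animal stood apart from the others by Dixon's ratio, the gap to its nearest neighbour over the whole range (95% critical value); chance flags about 1 in 20 groups. Vehicle animal 3 was the one apart for Sox10 (ratio 0.951, at 0.95 with the next at 1.13), Bcas1 (0.908, at 3.55 with the next at 3.89) and Olig1 (0.881, at 2.35 with the next at 2.65), where it was the lowest, and for Pdgfra (0.838, at -0.31 with the next at -0.44), where it was the highest. Vehicle animal 4 was the lowest for Mbp (0.871, at 6.82 with the next at 6.97). In Y+I, animal 2 was the highest for Mog (0.851, at 2.98 with the next at 2.56), animal 4 for Gpr17 (0.833, at -2.49 with the next at -3.36) and animal 3 for the median deviation of the precursor genes (0.844, at 0.14 with the next at 0.04).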

How the results depend on the processing

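Of 31 members, 17 kept their sign in all 20 alternatives, and none other than Aspa was called in any. Aspa kept its direction in all 20 and lost the call in 7, with adjusted p-values from 0.0135 to 0.0996. Member counts were 0 with the animal number as a replicate block, and with Y+I animals 2 and 3 left out together, and otherwise 1, with 0 to 1 on leaving out 1 animal. Counts of features were 665 under cyclic loess, 3887 with no filter on dim probes, 164 without Y+I animals 2 and 3, 775 at an adjusted p under 0.1 and 121 to 355 without 1 animal. Of the 439 main calls 139 were higher in Y+I, against 400 of 602 under normexp. The median of the precursor members ranged from 0.019 to 0.171 without 1 animal, and that of the myelin members from 0.013 to 0.122.

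The replicate block for the animal number called 144 features and 0 members (Aspa adjusted p = 0.068), and Rxrg (0.0946), Fgf2 (0.12), Igfbp2 (0.0631), Slc17a6 (0.063), Camk2a (0.0836) and Ngfr (0.0687) lost their calls too. Without Y+I animals 2 and 3, so did Rxrg (0.132), Fgf2 (0.0591), Igfbp2 (0.0877), Slc17a6 (0.153), Camk2a (0.118) and Slc6a13 (0.0641). Same-numbered animals deviated with correlations of -0.111 to 0.046 and 2 of 8 samples correlated best with their own number, so the numbers were not taken to pair the animals.

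Sign turned for Mbp with the mean of its probes (-0.173). It turned for Gjb1 under cyclic loess (0.0734) and normexp (0.178). Plekhb1 turned under quantile normalisation (-0.0021) and array weights (-0.0319). Without Y+I animals 2 and 3 it turned for Plekhb1 (-0.106), Opalin (-0.0176), Ermn (-0.0044), Ugt8 (-0.0146) and Fa2h (-0.0991). Omg turned under quantile (0.00615), median centring (0.0012), normexp (0.0296), the value table (0.0043) and array weights (0.0598). Under normexp it also turned for Sostdc1 (0.15), Dusp15 (0.0777) and Mbnl3 (0.248). Leaving out 1 animal turned the sign in 13 fits, with ranges over the 8 omissions of -0.0753 to 0.269 for Gpr17, -0.0082 to 0.153 for Olig1, -0.142 to 0.0101 for Sox10, -0.0024 to 0.185 for Mag, -0.0599 to 0.0965 for Plekhb1, -0.114 to 0.0839 for Gal3st1, -0.0547 to 0.194 for Fa2h, -0.169 to 0.0111 for Enpp2 and -0.137 to 0.09 for Omg. Most of these values lie near 0, and the cause was not tested.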
